A study of Mus musculus with 16 samples.

Results

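The short recurrent regions of mouse liver m6A are 1382 stretches of 120 bp or less, found among 17526 regions in all. They were obtained by merging the peaks of 8 mice wherever they overlapped by at least 1 bp, and by keeping the merged regions that were 120 bp or shorter and carried a peak in at least 4 of the 8 peak lists. The regions were thus chosen by their width and by the number of lists with a peak, and both are given only as a description. Liver RNA of male C57BL/6J mice was studied by MeRIP-seq, in which an antibody pulls down RNA fragments holding N6-methyladenosine (m6A). The mice were 10 to 11 weeks old when purchased, before the diets were given. HFrD mice (n = 4, numbered 1, 2, 5 and 7) received a high-fructose diet for 2 weeks, with 70% of its energy from carbohydrate, 10% from fat and 20% from protein. ND mice (n = 4, numbered 1, 3, 6 and 7) received a normal diet for the same time. The tissue was whole liver, so no value belongs to a single cell type, and the input libraries were not analysed here.

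m6A is written on messenger RNA by the METTL3-METTL14 complex, which prefers an adenosine followed by cytidine in the motif known as DRACH, with GGACT as its best known form in DNA letters. In mammalian mRNA, m6A lies mostly in long internal exons and near the stop codon. The exon junction complex, which is deposited upstream of each splice junction, is known to keep the writer away from short internal exons, and this is why peaks on short exons are of interest.

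The lists held 8055 to 10093 peaks in HFrD mice and 8959 to 11517 in ND mice, and read depth is not known, so the length of a list is the only measure of its yield. A peak that is missing from a list may come from less methylation, less transcript or fewer reads, and these cannot be told apart here. Identical peaks (in position, score and fold) numbered at most 2 between any pair of lists. Peaks were found on 8 of 15 hepatocyte marker genes, and the other 7, among them Alb and Cps1, had none in any list.

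The 6 whole coding exons of highest score that carried a peak in all 8 mice are shown first, since they are what a strong peak on a short exon looks like. Each is read 5′ to 3′ on the strand of its gene in GRCm38.p6, with capitals marking the 18 words of DRACH. These are NNACN with A, G or T first, A or G next and A, C or T last, searched on the strand of the transcript only, and words may overlap.
Ddrgk1 exon 3 of 9, chr2:130662077-130662189, minus strand: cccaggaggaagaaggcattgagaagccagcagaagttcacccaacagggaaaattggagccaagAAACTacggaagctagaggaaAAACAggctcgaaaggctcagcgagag
Eif3j1 exon 4 of 8, chr2:122041582-122041673, plus strand: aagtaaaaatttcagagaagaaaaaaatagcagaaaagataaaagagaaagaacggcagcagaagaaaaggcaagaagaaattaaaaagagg
Hsp90b1 exon 7 of 18, chr10:86698319-86698438, minus strand: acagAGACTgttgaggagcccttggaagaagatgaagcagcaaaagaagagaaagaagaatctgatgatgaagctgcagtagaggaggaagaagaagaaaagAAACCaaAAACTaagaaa
Rsph3a exon 2 of 8, chr17:7952549-7952636, plus strand: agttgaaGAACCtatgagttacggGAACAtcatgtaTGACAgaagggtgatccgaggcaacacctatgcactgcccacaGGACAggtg
Rsph3b exon 2 of 8, chr17:6941669-6941756, minus strand: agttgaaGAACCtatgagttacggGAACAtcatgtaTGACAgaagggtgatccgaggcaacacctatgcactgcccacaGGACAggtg
Tma7 exon 3 of 4, chr9:109082002-109082089, minus strand: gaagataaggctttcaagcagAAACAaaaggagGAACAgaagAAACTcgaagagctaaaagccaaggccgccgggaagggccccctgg
Rsph3a and Rsph3b, which encode a radial spoke head protein of cilia, gave the same 88 bases, and they were the only pair of identical sequences among the short regions. Reads from these copies cannot be assigned with certainty, and their values are uncertain for that reason. None of the 6 exons held GGACT, and the exon of Eif3j1 held no DRACH word at all. The exons of Ddrgk1, Eif3j1, Hsp90b1 and Tma7 are rich in A and G.

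The short regions were 5 to 120 bp wide, with a median of 95 bp (quartiles 77 and 109 bp). They made up 14.5% of the 9547 regions found in at least 4 lists. Of the 3043 regions of 120 bp or less, 45.4% reached 4 lists, and of the 14483 longer regions 56.4% did. All 8 lists held 560 short regions (40.5%), against 46.5% of the longer recurrent regions. The remaining short regions were found in 7 (227), 6 (198), 5 (172) and 4 lists (225). The median fold enrichment given by the peak caller was 7.33 for the short regions and 8 for the longer recurrent ones. The score percentile, which ranks a peak's score within its own list from 0 to 100, had a median of 43.1 in the short regions and 52.6 in the longer recurrent ones. Short regions present in more lists also had higher scores, with a median percentile of 24.9 in 4 lists and 63.7 in 8 lists.

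At the width limit, 24 recurrent regions measured 120 bp and 24 measured 121 bp. Of those of 120 bp, the 3 of highest score were on Hsp90b1, Spcs2 and Tcea3, with 4 HFrD and 4 ND mice each. Others of 120 bp were in fewer lists, such as those on Cwf19l2 and Rufy1 (3 HFrD and 3 ND mice each). Just outside, at 121 bp, were regions on Canx (2 HFrD and 2 ND mice), Tmem57 (4 and 4) and Plg (3 and 3). The narrowest were a 5 bp region on the predicted gene Gm10801 (3 HFrD and 1 ND mice), a 13 bp region on Syne1 (3 and 4) and a 20 bp exon of Suds3 (4 and 4).

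Nearly all short regions were whole exons. Of the 1376 that could be placed on a coding transcript, 1336 (97.1%) began and ended exactly at the ends of an annotated exon, against 73.1% of the longer recurrent regions and 81.8% of the short regions found in under 4 lists. In 1254 regions (90.7%) the start and the end were identical in every list that held the peak. The authors kept peaks that overlap exons of mRNA, and whether the peak caller or that step set these ends is not given in the sources used here. Internal exons held 1198 of the placed regions (87.1%), first exons 175 (12.7%) and last exons 3 (0.218%), whereas 2405 of 8008 placed longer recurrent regions were on last exons. The sequence was coding throughout in 1129 regions (82.0%), coding and untranslated in 149 (10.8%), 5′ untranslated in 97 (7.05%) and 3′ untranslated in 1. Exon 2 held 256 of them (18.6%), and the last but one exon held 111 (8.07%). Of the 1121 regions that were whole internal coding exons, 488 (43.5%) had a length divisible by 3. The same share was 46.9% in short regions of under 4 lists and 42.2% in longer recurrent ones, so it was not particular to the short recurrent regions.

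The exon itself offers a denominator. In the genes with a recurrent region, 1271 of 22252 internal coding exons of 120 bp or less carried one (5.71%), against 3198 of 24484 longer internal coding exons (13.1%). The share was 3.64% in exons of 1 to 60 bp, 5.26% at 61 to 90 bp and 6.76% at 91 to 120 bp. It was 7.74% at 121 to 150 bp, 10.1% at 151 to 200 bp and 16.1% at 201 to 400 bp. Above 400 bp, 788 of 1294 exons (60.9%) carried a recurrent region. The share was thus higher in each longer class, and the classes of 120 bp or less lay at the low end of it. It is counted per exon, and a longer exon has more bases in which a peak can fall. No rate per base was computed, so the shares do not show that short exons are depleted.

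**Figure D1:**
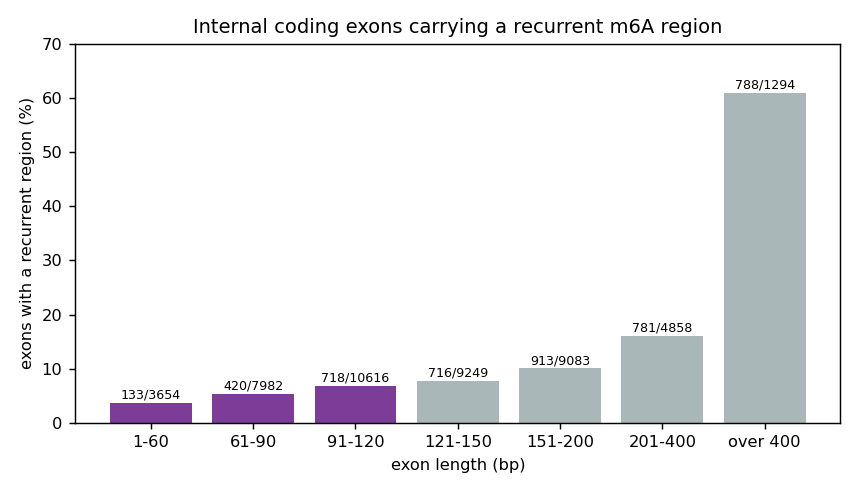
Percentage of internal coding exons that carried a recurrent m6A region, by exon length in bp, in genes with a recurrent region. The bars of 120 bp or less (purple) lie between 3.64% and 6.76%, and the share reaches 60.9% in exons over 400 bp. Numbers above the bars are exons with a region over exons counted.

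Peaks on short exons seldom stood alone. Of the 1198 short regions on internal exons, 1026 (85.6%) had a region of some list on a neighbouring exon, 818 (68.3%) on the upstream one, 680 (56.8%) on the downstream one and 472 (39.4%) on both. Among the internal coding exons of 120 bp or less in the same genes, a neighbour carried a region beside 82.8% of the 1271 exons with a recurrent region, against 26.7% of the 20981 exons without one. The peak number was never shared between a short region's peak and another row of the same list (0 of 9017 peaks). Whether the numbers were given before or after peaks were fitted to exons is not known. They thus cannot show that each exon was called apart from its neighbours. The longer neighbouring exon had a median of 160 bp beside exons with a recurrent region and 151 bp beside those without. The 172 short regions with no region on either neighbour were in all 8 lists in 29.7% of cases, against 43.0% of the other internal ones.

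The exons with a peak were rich in adenosine. Adenosine made up 35.6% of the bases in the 1121 whole internal coding exons among the short regions, against 28.5% in the 20981 exons of 120 bp or less in the same genes with no recurrent region. Thymidine made up 17.8% against 22.7%, cytidine 19.2% against 23.1%, and guanosine 27.4% against 25.7%. The median share of adenosine per exon was 35.3% (quartiles 30.3% and 41.1%), against 28.3% (23.9% and 33.3%). Over all 1376 placed regions adenosine made up 33.2%, and it was 34.7% in those found in all 8 lists and 31.1% in those found in 4. In short regions of under 4 lists it was 30.3%. The longest uninterrupted run of A and G had a median of 9 bases in the short regions and 7 in the exons without a recurrent region.

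The canonical word was not more frequent in them. GGACT was found in 73 of the 1121 whole internal coding exons (6.51%), against 8.46% of the exons without a recurrent region. Any DRACH word was found in 88.1% against 84.1%, in exons of a median of 95 bp against 89 bp. The classes by length hold all 1376 placed short regions, first exons and untranslated ones included, and set them against internal coding exons only. By length, GGACT stood in 2.78% of the short regions against 4.97% of the other exons at 1 to 60 bp, in 5.35% against 8.08% at 61 to 90 bp and in 8.81% against 10.0% at 91 to 120 bp. A DRACH word stood in 68.8% against 64.9%, 85.3% against 84.2% and 89.5% against 90.9% in the same classes, so its direction was not the same in all of them. With up to 100 bases of each neighbouring exon added, GGACT was found in 21.2% of the short exons with a recurrent region and 25.7% of those without. A match is only a stretch of letters and does not mark a methylated base, and no match says nothing of the antibody or the writer.

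The short regions lay on 938 genes, 12.2% of the 7693 genes with any region. One short region was found on 662 genes, 2 on 180, 3 on 56 and 4 or more on 40. In 163 of these genes (17.4%) no longer region reached 4 lists, and in 62 (6.61%) every region was a short recurrent one. Tma7, which encodes a small protein of the translation machinery known from yeast, Eif3j1, a subunit of translation initiation factor eIF3, and Nedd8, a ubiquitin-like modifier, were among those 62.

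The 12 short regions of highest score in all 8 lists were on Ddrgk1, Eif3j1, Golim4, Hsp90b1, Nedd8, Rsph3a, Rsph3b, Spcs2, Ssr1, St13, Tbca and Tma7. Hsp90b1, the Hsp90 chaperone of the endoplasmic reticulum (ER), had fold enrichments of 10.6, 11.3, 12.6 and 9.55 in HFrD mice 1, 2, 5 and 7, against 11.5, 10.3, 11.2 and 10.2 in ND mice 1, 3, 6 and 7. Spcs2, a subunit of the signal peptidase complex, had 246.4, 125.6, 112.5 and 130.8 in HFrD mice, against 137.8, 95.3, 128.9 and 104.8 in ND mice on its first exon. The values of both diets overlapped for each of these genes. Ddrgk1, an ER protein of the UFM1 pathway, had 25.7, 18.4, 21.4 and 15.6 in HFrD mice, against 20.2, 19.1, 23.0 and 22.0 in ND mice. Ssr1, a subunit of the translocon-associated complex, had 18.5, 17.8, 18.4 and 14.01 in HFrD mice, against 14.5, 20.3, 16.3 and 21.6 in ND mice on exon 2 of 8. Golim4, a Golgi membrane protein, held 7 DRACH words in 110 bp and had 45.2, 61.5, 48.4 and 39.2 in HFrD mice, against 33.0, 49.6, 52.7 and 60.2 in ND mice. The diets again overlapped in each.

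Eif3j1 had 55.7, 55.2, 41.2 and 41.8 in HFrD mice, against 48.5, 88.7, 64.0 and 44.8 in ND mice. Tma7 had 42.1, 35.4, 45.3 and 41.3 in HFrD mice, against 64.8, 31.9, 54.2 and 59.8 in ND mice. Nedd8 had 49.2, 39.4, 45.8 and 23.7 in HFrD mice, against 41.4, 30.9, 43.5 and 50.2 in ND mice on exon 3 of 4. These 3 regions each covered a whole coding exon, and the values of both diets overlapped in each. St13, a cochaperone of Hsc70, had 32.8, 44.4, 44.7 and 24.8 in HFrD mice, against 37.4, 27.5, 35.5 and 38.9 in ND mice on exon 3 of 12. Tbca, a tubulin folding cofactor, had 61.7, 33.8, 30.4 and 15.6 in HFrD mice, against 46.1, 27.1, 20.8 and 42.7 in ND mice. Rsph3b was the most variable of the 12, with 1054, 2018, 70.2 and 214.0 in HFrD mice, against 518.8, 1868, 2517 and 1291 in ND mice. Its copy Rsph3a had 398.6, 461.1, 336.9 and 327.0 in HFrD mice, against 434.1, 387.6, 693.8 and 256.5 in ND mice. Fold enrichments have no common scale between lists, and they were not tested between the diets.

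**Figure D2:**
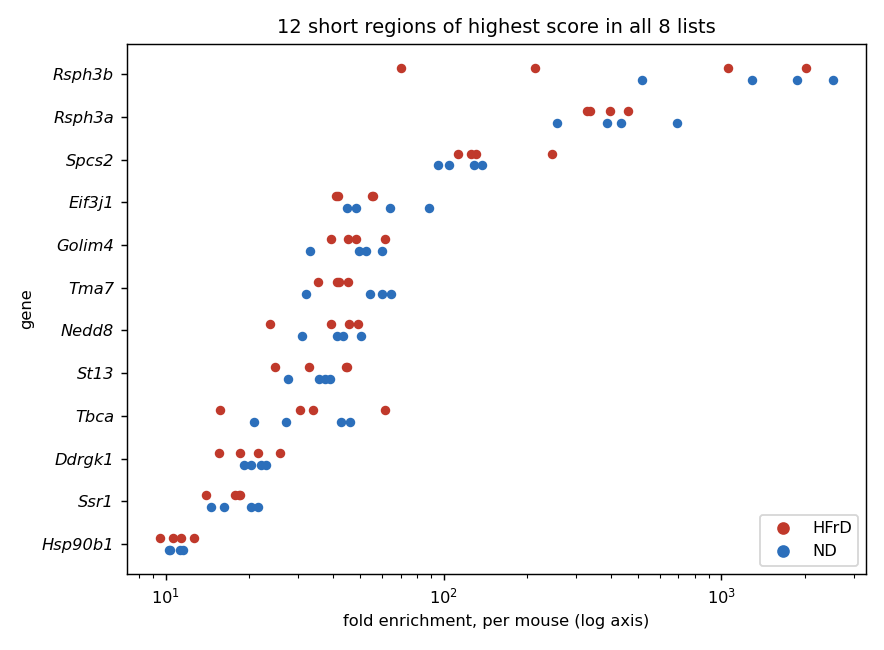
Fold enrichment in each mouse (log axis) of the 12 short regions of highest score found in all 8 lists, with HFrD mice in red above ND mice in blue. The points of both diets overlap on every row, and the widest spread is that of Rsph3b, between 70.2 and 2517.

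Several genes carried peaks on a whole series of short exons. Neb, which encodes the giant muscle protein nebulin, had 11 short regions of 105 to 117 bp, between exon 9 and exon 138 of 157, out of 117 short internal coding exons. Of these 11, 10, 5, 2 and 7 had a peak in HFrD mice 1, 2, 5 and 7, against 9, 10, 9 and 11 in ND mice 1, 3, 6 and 7. More ND than HFrD mice had the peak in 9 of them and more HFrD mice in 1, while HFrD mouse 1 lay within the range of the ND mice. The 11 regions lie on 1 gene, so they are not independent of each other. Over all short regions, ND mice were also in the majority more often (26.5%) than HFrD mice (17.7%). Ktn1, which encodes the ER protein kinectin, had 9 short regions of 69 to 117 bp among 33 short exons, with 8, 9, 9 and 7 of them in HFrD mice and 9, 8, 8 and 9 in ND mice. Cwf19l2 had 7, with 5, 6, 7 and 7 in HFrD mice and 4, 5, 5 and 6 in ND mice. In Ktn1 and Cwf19l2 the counts of the diets overlapped.

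St13 had 6 short regions on its 9 short internal coding exons, and each was present in all 8 mice. Their median fold enrichments went up to 36.4, on exon 3, and the lowest was 6.71. The gene 4930506M07Rik likewise had 5 short regions, all in every mouse. Cgnl1, which encodes the junction protein paracingulin, had 6 short regions of high score (median percentile 85.2), with 6, 5, 6 and 5 in HFrD mice and 6 in each ND mouse. Rufy1, an endosomal protein, had 6, with 4, 6, 6 and 5 in HFrD mice and 5, 4, 5 and 6 in ND mice. Cast, which encodes the calpain inhibitor calpastatin, had 5, with 4, 5, 5 and 4 in HFrD mice and 3, 3, 4 and 5 in ND mice.

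**Figure D3:**
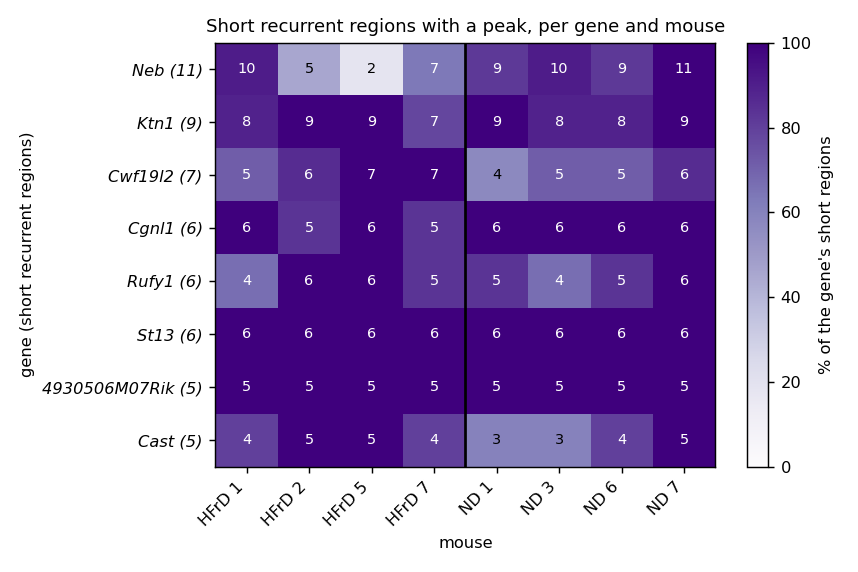
Number of short recurrent regions with a peak in each mouse, for 8 of the 10 genes with the most of them (total in parentheses), with HFrD mice left of ND mice and shading for the share of the gene's short regions. St13 and 4930506M07Rik are complete in all 8 mice, whereas Neb ranges from 2 of 11 in HFrD mouse 5 to 11 of 11 in ND mouse 7.

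Genes were also read by function, against a background of 12.2% of genes with a region and 5.71% of short internal coding exons. Among motor, spectrin and giant cytoskeletal proteins, 13 of 33 genes with a region had a short one, and 4.26% of their short exons carried a recurrent region. Iqgap2, a scaffold protein of the IQGAP family, had 4, of which 3 were in all 8 mice. In ubiquitin ligases and deubiquitinases 11 of 38 genes had one (2.69% of short exons), in chromatin modifiers 15 of 58 (6.09%), and in splicing factors and RNA helicases 9 of 37 (6.48%). Smarcc1, a subunit of the SWI/SNF remodelling complex, had 4 short regions, on exons 12, 13, 22 and 23, and each was in all 8 mice. The strongest, on exon 23, had a median fold enrichment of 21.4. Ddx46, a spliceosomal helicase, had 2, and that on exon 4 reached a median of 25.9. The share of genes was above the background in all 4 of these lists, whereas the share of short exons was below it in the first 2 and close to it in the others.

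Nuclear receptors and coregulators had 15 short regions on 8 of 30 genes. Of their 91 short exons, 13 carried a recurrent region (14.3%). Several of these exons share a gene, so they are not independent of each other. Ncor1, a nuclear receptor corepressor, held 3 of the 15, of which 2 were in all 8 mice. Rora, which is also in the circadian list, had 1, on exon 3 (8 mice). Among the genes of the m6A machinery, 3 of 20 with a region had a short one, and 5 of 52 short exons carried a recurrent region (9.62%). Fto, which encodes a demethylase, had 2, on exons 1 (3 HFrD and 3 ND mice) and 2 (2 and 2). The reader Ythdc1 had 2, on exons 2 (3 and 3) and 5 (3 and 2). Zc3h13, a partner of the writer complex, had 1 in all 8 mice. In the exon junction complex and nonsense-mediated decay list 4 of 19 genes had one, and 7 of 102 short exons carried a recurrent region (6.86%). Acin1 had 2 and Upf2 and Upf3b 1 each, all of them in all 8 mice, while Ncbp1 had 1 (3 HFrD and 4 ND mice). The distances of these 3 lists from the background rest on few exons and were not tested.

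The lists of hepatic metabolism held few short regions. No gene of de novo lipogenesis had a short recurrent region (0 of 16 with a region, and 0 of 53 short exons). In fructose and glucose metabolism 1 of 18 had one. It was Pcx, which encodes pyruvate carboxylase, on its first exon (8 mice) and on exon 2 (3 HFrD and 2 ND mice), and the first is 5′ untranslated. In fatty acid oxidation 3 of 14 had one (21.4%), on Hadha (8 mice), Abcd3 and Acaa2 (2 HFrD and 3 ND mice each). Of its 40 short exons, 3 carried a recurrent region (7.50%). Both shares rest on counts of 3, and their distance from the background was not tested. Lipc and Slco1b2 had 1 each in the cholesterol, bile acid and lipoprotein list (2 of 17 genes, 11.8%), both with 3 HFrD and 3 ND mice. Irs2 (8 mice) and Stk11 (4 HFrD and 3 ND mice) were those of insulin, AMPK and mTOR signalling (2 of 24), and Map3k7 and Mapk9 those of the MAPK list (2 of 26). Collagens, laminins and integrins had 7 of 27, but 1.91% of their 577 short exons. No adjusted p-value in any of these lists was under 0.05 (Fisher's exact test over all regions, Benjamini-Hochberg), an outcome that 4 mice per diet all but fix.

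The high-fructose diet was then set against the normal diet. HFrD mice 1, 2, 5 and 7 had a peak in 1028, 1198, 1180 and 1005 of the 1382 short regions, against 1068, 1133, 1152 and 1253 in ND mice 1, 3, 6 and 7. This was 79.8% ± 7.26 in HFrD mice and 83.3% ± 5.54 in ND mice (SD, n = 4 each), and the ranges overlapped. The HFrD minus ND difference of -3.53 percentage points turned to 2.41 with equal list lengths. For the longer recurrent regions it was 80.7% ± 5.15 in HFrD mice and 86.5% ± 4.36 in ND mice. Since presence chose the regions, the difference was not tested. HFrD mouse 7, with the shortest list (8055 peaks), had the fewest short regions, and ND mouse 7, with the longest (11517), had the most.

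The share of short peaks in a list does not depend on the choice of regions. Peaks of 120 bp or less made up 15.3%, 16.1%, 16.0% and 15.2% of the lists of HFrD mice, against 14.8%, 14.95%, 15.2% and 15.8% in ND mice. The mean was 15.6% ± 0.456 in HFrD mice and 15.2% ± 0.455 in ND mice (SD, n = 4 each), a difference of 0.447 percentage points that lay within the spread between mice (exact permutation test, two-sided, p = 0.2 over 70 splits, where 0.0286 is the smallest p possible). When only the 8055 strongest peaks of each mouse were kept, the difference was 1.32 percentage points (exact permutation p = 0.0286), so the call depends on list length. This cut leaves out the weakest peaks and takes most from the longest lists. Short regions had lower scores than longer ones, and how far the cut itself changed the share was not tested.

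**Figure D4:**
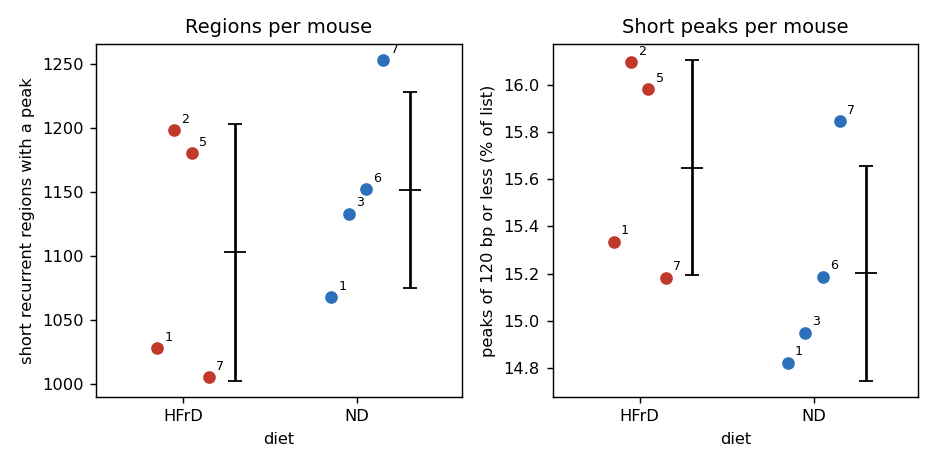
Short recurrent regions with a peak (left) and peaks of 120 bp or less as a percentage of the list (right) in each mouse, HFrD left of ND, with the mouse number beside each point and the mean ± SD in black. The values of both diets overlap in both panels, from 1005 to 1253 regions and from 14.8% to 16.1%.

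By region, 772 of the 1382 (55.9%) were found in as many HFrD as ND mice. HFrD mice were in the majority in 244 (17.7%) and ND mice in 366 (26.5%). Of the longer recurrent regions, 59.0% were equal, with HFrD in the majority in 13.8% and ND in 27.2%. A peak in all 4 HFrD and no ND mice was found in 4 short regions, where 0.216% of all tested regions had it, and a peak in no HFrD and all 4 ND mice in 8, where 0.864% had it. These were 0.672% and 1.34% of the 595 short regions that could be tested, which means that 2 to 6 lists held them. A short region must by its rule be in 4 lists, which raises both shares. Among regions in exactly 4 lists, 5.33% of the 225 short ones were separated in either direction, against 5.84% of all 1370. None of the 7410 tested regions, long or short, passed Fisher's exact test after Benjamini-Hochberg adjustment (0%, smallest adjusted p = 1). With 4 mice per diet, Fisher's exact test gives no p under 0.0286. A region could thus pass only if a large part of all tested regions were separated at once. The design all but fixed this outcome, and it does not show that the diets were alike. At an unadjusted p under 0.05 there were 12 short regions, all at 0.0286 by the exact Fisher test, and 80 regions in all.

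**Figure D5:**
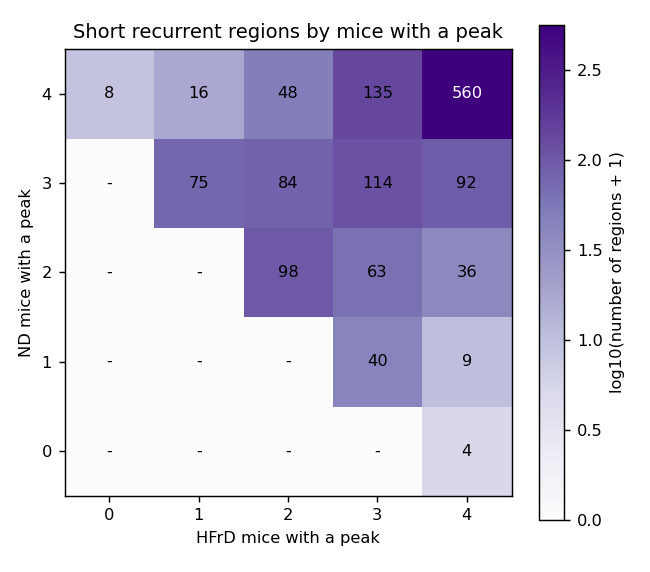
Number of short recurrent regions by how many HFrD mice (horizontal) and ND mice (vertical) had a peak, with shading on a log10 scale and dashes where the rule of at least 4 lists leaves no region. Most are at 4 and 4 (560), and the corners of complete separation hold 4 regions toward HFrD and 8 toward ND.

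The coding exons that were complete in HFrD mice and absent from ND mice are shown with the same capitals, as the regions on which the diets differed most. Of the 4 regions, Osbpl8 went to a difference of 0 mice and Gtf3c6 to 1 when scores under 100 were left out.
Marco exon 11 of 17, chr1:120484774-120484872, minus strand: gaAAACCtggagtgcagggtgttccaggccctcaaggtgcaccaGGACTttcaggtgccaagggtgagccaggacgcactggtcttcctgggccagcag
Ttc3 exon 38 of 46, chr16:94454427-94454523, plus strand: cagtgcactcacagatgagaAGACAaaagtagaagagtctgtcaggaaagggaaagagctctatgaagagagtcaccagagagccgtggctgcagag
Osbpl8 exon 23 of 24, chr10:111291491-111291593, plus strand: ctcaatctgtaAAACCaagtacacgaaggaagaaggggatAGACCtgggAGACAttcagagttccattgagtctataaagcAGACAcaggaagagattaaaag
Marco, a scavenger receptor of macrophages, was the only one of the 3 with GGACT, and had fold enrichments of 7.86, 7.28, 9.41 and 8.55 in HFrD mice 1, 2, 5 and 7, against no peak in any ND mouse. Its other 3 regions were likewise in HFrD lists only, with 2, 0, 2 and 1 of them in HFrD mice and 0 in each ND mouse. Over the whole list of Kupffer cell and macrophage markers, 8 of 12 genes had regions, and 6 to 9 of their 18 regions were present in HFrD mice against 4 to 11 in ND mice. Adgre1, Cd68, Timd4 and Lyz2 had none. The authors list Marco among the genes whose mRNA was raised in HFrD liver. The part of macrophage number or of Marco mRNA level in this result was not tested.

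Ttc3, which encodes a ubiquitin ligase with tetratricopeptide repeats, had 9.36, 6.40, 6.99 and 6.67 in HFrD mice on exon 38 of 46 and no peak in ND mice. Both neighbouring exons carried a region, and of its 6 other regions 2, 4, 6 and 4 were present in HFrD mice, against 3, 3, 2 and 2 in ND mice. Osbpl8, a lipid transfer protein of the ER, had the weakest, with 3.94, 3.30, 4.80 and 3.93 in HFrD mice and no peak in ND mice. The fourth was the first exon of Gtf3c6, which encodes a subunit of transcription factor TFIIIC, with 8.93, 6.47, 6.91 and 9.08 in HFrD mice and no peak in ND mice. Its 3 other regions were in as many HFrD as ND mice.

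In the opposite direction, 4 whole coding exons are shown. When scores under 100 were left out, the HFrD minus ND difference of -4 mice became 0 for Trip11, -1 for Mrpl42 and Sec14l4, and -2 for Eif3l, Scfd1 and Emc1.
Ckap5 exon 37 of 43, chr2:91612740-91612815, plus strand: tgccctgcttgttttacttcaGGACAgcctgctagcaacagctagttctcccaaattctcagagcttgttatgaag
Scfd1 exon 3 of 25, chr12:51387050-51387138, plus strand: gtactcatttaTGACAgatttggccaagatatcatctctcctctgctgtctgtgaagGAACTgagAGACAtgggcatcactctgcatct
Emc1 exon 22 of 24, chr4:139373809-139373893, plus strand: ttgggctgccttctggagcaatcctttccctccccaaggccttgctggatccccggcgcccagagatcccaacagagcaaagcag
Trip11 exon 15 of 21, chr12:101871824-101871927, minus strand: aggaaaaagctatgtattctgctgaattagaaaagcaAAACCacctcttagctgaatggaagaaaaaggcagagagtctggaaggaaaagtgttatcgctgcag
The exon of Emc1 held no DRACH word, and none of the 4 held GGACT. Ckap5, a microtubule polymerase, had the highest score percentile of the 8 (86.1), with no peak in HFrD mice, against fold enrichments of 10.4, 13.4, 7.69 and 11.7 in ND mice 1, 3, 6 and 7.

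Scfd1, a protein of ER to Golgi transport, had no peak on exon 3 in HFrD mice, against 7.11, 4.54, 4.74 and 6.61 in ND mice. Emc1, a subunit of the ER membrane complex, had none in HFrD mice, against 5.41, 4.34, 5.56 and 5.35 in ND mice. Trip11, a golgin, had none in HFrD mice, against 6.93, 7.04, 6.85 and 4.75 in ND mice. Scfd1 had 1 other region, present in all 8 mice, and the part of its transcript level was not tested. The last 3 were first exons. Eif3l, a subunit of eIF3, had no peak in HFrD mice, against 6.82, 13.1, 9.48 and 10.4 in ND mice. Mrpl42, a protein of the mitochondrial ribosome, had none in HFrD mice, against 4.44, 3.94, 3.98 and 4.20 in ND mice. Sec14l4, a lipid-binding protein of the Sec14 family, had none in HFrD mice, against 8.50, 7.42, 6.33 and 5.34 in ND mice. Sec14l4 and Mrpl42 also had other regions that were in all 8 mice, 1 and 2 of them.

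A difference of at least 3 mice was found in 13 short regions toward HFrD and 24 toward ND, when the 12 separated ones are included. These were 0.941% and 1.74% of the short regions, against 0.796% and 2.65% of all regions in at least 4 lists, so the excess toward ND was smaller in the short regions than over all. Rps27l, Khdrbs3 and Usp48 were among those with 4 HFrD and 1 ND mice. When scores under 100 were left out, the difference stayed at 3 mice for Rps27l and became 0 for Khdrbs3 and Usp48. Rps27l, a ribosomal protein, had 5.49, 4.69, 5.81 and 4.81 in HFrD mice, against 4.39 in ND mouse 1 alone. Erlin2, Neb exon 22, Wwc1 and Zc3h18 had the highest with 1 HFrD and 4 ND mice. Erlin2, an ER lipid raft protein, had 6.36 in HFrD mouse 2 alone, against 8.61, 9.24, 4.08 and 5.81 in ND mice. Zc3h18, an RNA-binding protein of nuclear RNA processing, had 4.83 in HFrD mouse 2 alone, against 6.91, 3.79, 9 and 7.50 in ND mice. The lone HFrD values of Erlin2 and Zc3h18 lay within the ND range, and the lone ND value of Rps27l lay below the HFrD range.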

How the data were processed

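MeRIP-seq of liver RNA from 4 HFrD and 4 ND mice was analysed through the deposited peak lists, with 1 list and 1 mouse per sample. Paired-end reads of 150 bp went through cutadapt 1.9.3 for trimming and HISAT2 2.0.4 for alignment (mm10), per the submitters' processing notes. Peaks of each mouse were called by the authors with MACS, and those on mRNA exons were kept. The MACS version, its settings and its background were not given in the sources used here. Each peak's deposited score is 10 times the negative log10 of its p-value (at least 50), and the deposited fold enrichment is the caller's ratio to background. Deposited false discovery rates and the authors' comparisons between diets (fold changes and p-values) were not used. A read is longer than any of the short regions, so it can cover neighbouring exons as well.

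Starts were counted from 0, so 1 was added. Peaks overlapping by 1 bp were merged over the 77183 peaks of all lists. Regions were placed on GENCODE M21 and RefSeq transcripts of GRCm38.p6, the assembly of mm10. An exon carried a region if 50% of it was covered. Sequences were read from RefSeq's GRCm38.p6. Presence in HFrD against ND mice was compared by Fisher's exact test, two-sided, over all regions that 2 to 6 lists held, with Benjamini-Hochberg adjustment (threshold 0.05). The share of short peaks was compared by an exact permutation test. The Fisher step was tested on simulated data. Each list was taken as 1 animal.

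The short regions and the gene lists were chosen with earlier results of these data known, and they support nothing on their own. Base composition, the neighbours of other exons and the flanked motif search were added after the data were seen. Named regions were the 12 of highest score percentile in all 8 lists, every fully separated region, the 4 of highest score percentile with a 3-mouse difference in each direction, the 3 narrowest and widest and the 3 nearest over the limit, and the 10 genes with most short regions. For each of 15 pathway and 6 marker lists they were the genes with a short region (4 genes where there were more than 6), and the text leaves some out. Some items are not reported here. Alternatives were another overlap, fold, score, width or list limit, equal list lengths, each mouse left out, and the mice whose numbers both diets share. Software was scipy 1.17.1, pandas 2.3.3 and numpy 2.4.6 under Python 3.11.15, with matplotlib 3.10.9 for figures.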

Additional observations from a re-analysis of the deposited data

Results flagged for a closer look

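Among 46 sets of 4 mice (the values per mouse, and the fold enrichments of the 12 regions of highest score and of the separated regions), 3 held a mouse far from the other 3, where chance gives about 1 in 20. In the Spcs2 region, HFrD mouse 1 had a fold enrichment of 246.4, far above the other HFrD mice. In the Ssr1 region, HFrD mouse 7 had 14.01, below the other HFrD mice, and this mouse also had the shortest list. In the Trip11 region, ND mouse 7 had 4.75, below the other ND mice.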

How the results depend on the processing

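The number of short regions was 865 when scores under 100 were left out, 1370 when folds under 3 were, 1088 with equal list lengths, 2212 with a limit of 150 bp, 985 with at least 6 lists, and 1218 to 1307 with each mouse left out. Regions separated toward HFrD were 0 to 7 and toward ND 0 to 13 with each mouse left out, with 7 toward HFrD without ND mouse 3 or 6 and 13 toward ND without HFrD mouse 2 or 5. The counts of 0 follow from the rule, since a region in 3 mice of 1 diet is no longer in 4 lists, and likewise both counts were 0 with at least 6 lists. With equal list lengths 5 regions were separated toward each diet, and 2 of the 4 and 3 of the 8 were among them. Without scores under 100 there were 4 and 11, of which 2 and 2 were from the original ones. No region passed Fisher's exact test after adjustment under any alternative that was run, which the small number of mice per diet made all but certain. The HFrD minus ND difference in the share of short peaks was 1.32 with equal list lengths (exact permutation p = 0.0286), and 0.298 to 0.662 with each mouse left out. The HFrD minus ND difference in the share of short regions with a peak was -3.53 percentage points, -5.51 to -0.657 with each mouse left out, and 2.41 with equal list lengths, where its direction turned. With a limit of 150 bp, 88.7% of regions held a DRACH word. Of 1980 values of 165 named regions under alternatives, 1941 stayed within 1 mouse of the HFrD minus ND count. The separated regions were less stable: without scores under 100, 8 of the 12 moved by 2 mice or more (Gtf3c6 to 1, Osbpl8 and Trip11 to 0, Mrpl42 and Sec14l4 to -1, Eif3l, Scfd1 and Emc1 to -2), and with equal list lengths Gtf3c6 went to 2 and Mrpl42 and Sec14l4 to -2.

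Mice 1 and 7 share only a number between the diets. Same-numbered mice deviated together with correlations of 0.0549 and -0.0339, so they were not treated as pairs. With the replicate block of these 2 mice per diet, 26 regions were separated toward HFrD and 94 toward ND, the difference in the share of short peaks was -0.0753 (reversed), and that in the share of short regions was -10.4 percentage points. Separation is a far easier rule with 2 mice per diet, so 26 and 94 cannot be set beside the counts from all mice. Read depth is not known, so a missing peak cannot be assigned to methylation.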
